A study of Mus musculus with 10 samples.

Results

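Livers of old and young male control mice were compared, 3 libraries per age, which are 6 of the 10 libraries of the series and were chosen by their labels alone. The labels give all 6 the genotype Rosa26-KO, after a locus often used as a neutral editing site. For the Cd44 knockout the design names AAV8-TBG-saCas9-U6-sgCd44, an adeno-associated virus of serotype 8 with the small Cas9 of Staphylococcus aureus under the hepatocyte promoter TBG and a guide RNA. The control vector and its guide are not spelled out in the sources used here. The young livers were taken at 9 months of age and the old livers at 25 months, and the design gives virus at 7 and 23 months. By their genotype label the control livers of both ages were edited at Rosa26, and no unedited liver is in the comparison. The other 4 libraries, old livers labelled as Cd44 knockouts, entered the filter, the scaling and the estimate of the spread between livers but not the comparison. Polyadenylated RNA of whole liver was sequenced as paired reads of 75 bases, and the data are raw counts for 24537 gene symbols, with 17600200 to 21710228 counts per liver. Mouse strain and time of collection are not given in the sources used here. Nothing in the labels says that the livers of a group came from separate animals, so p-values measure the spread between these samples only.

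The liver is built mostly of hepatocytes, which secrete plasma proteins, handle lipids and amino acids and detoxify, and which lie along sinusoids lined by a specialised endothelium. Kupffer cells, the resident macrophages, sit in these sinusoids, and stellate cells, which store vitamin A and make matrix, lie just behind them. Ageing of the liver is known for infiltrating immune cells, for weaker proteostasis and for a fading male pattern of growth hormone dependent genes.

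Libraries of the same group were not equally alike. In a principal component analysis of the 6 livers, the first component held 58.1% of the variance and placed young livers at -53.4 to -29.9 and old control replicates 1, 2 and 3 at 42.8, 68.4 and 10.5. On the second component, with 20% of the variance, the old livers lay at 43.3, -11.2 and -44.4, and the young livers at -0.6 to 9.4. Counts of 2 old livers differed by 69.3 to 180 in chi-square per degree of freedom, those of 2 young livers by 21.7 to 34, where pure counting noise gives 1. The library name of old control replicate 3 lies outside the run of the other names, and whether it is a batch or the animal cannot be told apart. Young control replicate 2 had the lowest level of the clock output gene Dbp, at 2.64 CPM against 13.4 and 24.7 CPM in the other young livers, where CPM is the count scaled to library size with trimmed mean of M values (TMM) factors. The tissue label was checked with 18 hepatocyte marker genes. Scaled by library totals without TMM factors, they summed to 143000 to 163900 CPM in young and 134000 to 165800 CPM in old livers. Summed levels of gene lists are scaled this way throughout. Cd44, the target of the other virus, had 16.6, 11.2 and 10.1 CPM in young and 14.2, 29.99 and 25.9 CPM in old livers, an overlap, and did not pass between the ages (log2 fold change 0.89 ± 0.33, adjusted p = 0.0713, edgeR). In the 4 libraries labelled as Cd44 knockouts it had 18.9, 29.01, 17.6 and 13.1 CPM, 3 of them within the range of the old controls and 1 below it, and none below all young livers.

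The question was which differences between old and young livers are shared by every old liver. By edgeR's quasi-likelihood test with Benjamini-Hochberg adjustment, 3172 of 13909 genes (22.8%) passed at 0.05, with 1967 (14.1%) above and 1205 (8.66%) below the young level. Before adjustment 5354 genes (38.5%) had a p under 0.05. A gene was said to hold when it passed, when each old liver lay beyond all 3 young livers, and when it still passed after leaving out any 1 of the 3 old livers. That was so for 991 genes (7.12%), of which 676 were higher (4.86%) and 315 lower (2.26%). Without any test, 5239 genes (37.7%) showed no overlap between the old and the young livers, 2739 of them higher (19.7%) and 2500 lower (18%). Among the 991, 791 differed at least 1.5-fold and 344 at least 2-fold from the young mean in every old liver, and of these 344 genes 274 were higher and 70 lower. Of the 3172 changed genes 62% were higher. With library totals in place of TMM factors that share was 91.6%, the log2 fold changes of all genes moved by a median of 0.31 and 4226 genes passed, and after a correction for GC content and transcript length it was 41.8%, with a median move of -0.13 and 3788 genes.

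The 3 old livers did not carry the changes equally. Among the 3172 changed genes, old control replicate 3 was the liver nearest to the young mean for 1909 (60.2%) and replicate 2 for only 300 (9.46%), while replicate 2 was the furthest for 1679 (52.9%). The median size of the log2 ratio to the young mean was 0.94, 1.11 and 0.68 in replicates 1, 2 and 3. Leaving out replicate 2 brought the number of changed genes to 1032, and leaving out replicate 3 raised it to 5327. The young side mattered as much, since 396 genes passed without young control replicate 2, 1690 without replicate 1 and 1549 without replicate 3. When only the 6 Rosa26 livers were fitted, 1192 genes passed, among them 869 of the 991 that held, but 0 genes met the whole rule: with 5 libraries and without old control replicate 2, edgeR called 0 genes although 2863 had an unadjusted p under 0.05. The rule likewise gave 0 genes without young control replicate 2, where 2827 genes had an unadjusted p under 0.05 in the same step.

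**Figure D1:**
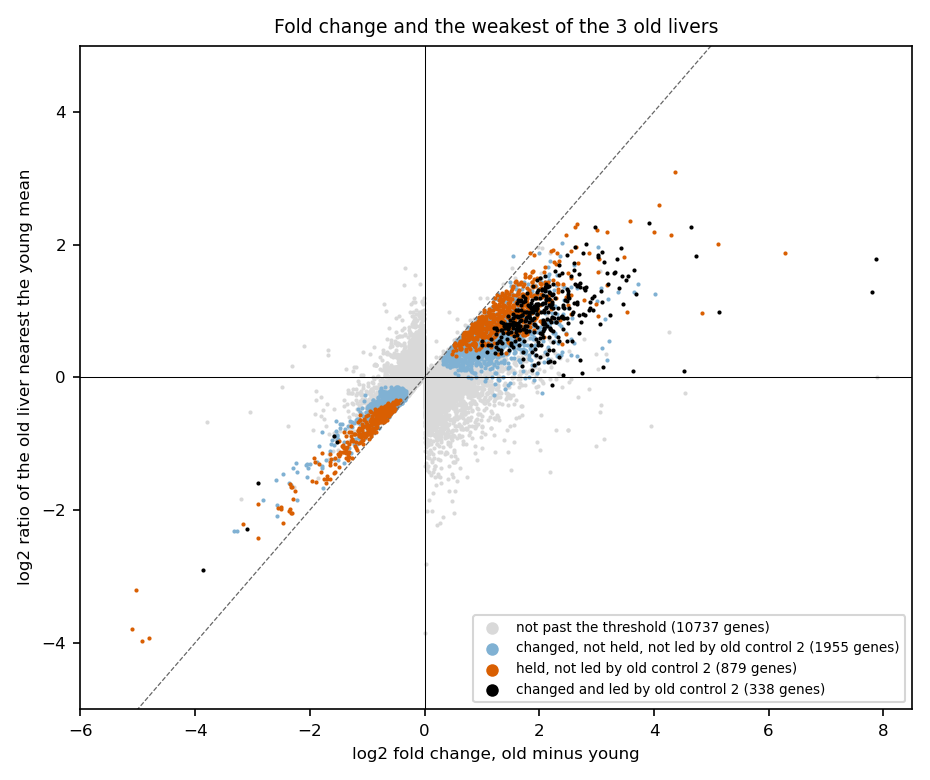
Each point is 1 of 13909 genes, with the log2 fold change of old over young livers on the horizontal axis and the log2 ratio of the old liver nearest to the young mean on the vertical axis; on the dashed diagonal both are equal. Genes that held and were not led by old control replicate 2 (879, orange) lie near the diagonal, and of the 338 changed genes led by old control replicate 2 (black) the 333 higher ones lie below it on the right.

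Higher genes that held were ranked by the log2 ratio of their weakest old liver, which favours genes near 0 in young livers. Holding already requires that old and young livers do not overlap. The 15 with the largest such ratio, with old group means of 1.08 to 8.63 CPM, were Tspan32, Gdf3, Mag, Hpgds, Bmf, Kcna2, Abcg3, Clec4b1, Bank1, Nkain1, Sirpb1a, Lrrc4c, Tlr1, Cx3cr1 and Nfe2. Of these, Hpgds, Abcg3, Clec4b1, Tlr1 and Nfe2 were at least 1 log2 unit further out in old control replicate 2 than in the other old livers. Several are known from blood cells: Tspan32 is a tetraspanin of haematopoietic cells, Bank1 a B cell scaffold, Sirpb1a and Clec4b1 myeloid surface receptors, Tlr1 a receptor for bacterial lipoproteins, Cx3cr1 the fractalkine receptor of monocytes and Nfe2 a megakaryocyte and erythroid transcription factor. Sirpb1a and Clec4b1 had at most 3 counts in each young liver and Tspan32 had 4, 0 and 0. These passed the filter on low counts only through old livers. Bmf, a BH3-only protein that promotes cell death, was the clearest of them by level. It had 1.77, 1.19 and 1.14 CPM in young and 7.72, 11.1 and 7.06 CPM in old livers, with little spread among the old ones. Its log2 fold change was 2.65 ± 0.27 (SE, adjusted p = 0.00639, edgeR). Cx3cr1 had 0.918, 0.726 and 0.824 CPM in young and 5.41, 6.56 and 3.53 CPM in old livers, which gave a log2 ratio of 2.64 ± 0.35 (SE, adjusted p = 0.00667, edgeR). Old control replicate 3 was the lowest of the old livers for Cx3cr1. Tspan32 rose from 0.245, 0 and 0 CPM to 1.52, 2.83 and 1.24 CPM. With at most 3 counts in each young liver, Gdf3, a growth factor of the transforming growth factor beta family, is given as at least 6.02-fold higher, Mag as at least 5.46-fold and Sirpb1a as at least 10.7-fold higher.

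Among the genes that fell in every old liver, several were abundant. The 15 with the largest ratio in their weakest old liver were Mup17, Mt1, Mt2, Ttll8, Mup7, Hspa1b, Mup14, Tchh, Mup18, Mup2, Lad1, Mup11, Cyp4a12b, Gm2083 and Hspa1a. They fall largely into 3 families, the metallothioneins, the inducible Hsp70 pair and the major urinary proteins, which are taken up below. Lad1, which encodes the basement membrane protein ladinin, fell from 11.3, 15.4 and 17.9 CPM to 2.36, 3.100 and 3.48 CPM, and the highest old liver was still far under the lowest young one. Ttll8, a tubulin glycylase, was at least 12-fold lower, with 1, 0 and 2 counts in the old livers. Of these 30 genes, 29 passed with only the 6 Rosa26 livers in the fit (not Lrrc4c) and 23 passed without young control replicate 2. The 7 that did not were Clec4b1, Hpgds, Tchh and 4 Mup genes.

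**Figure D2:**
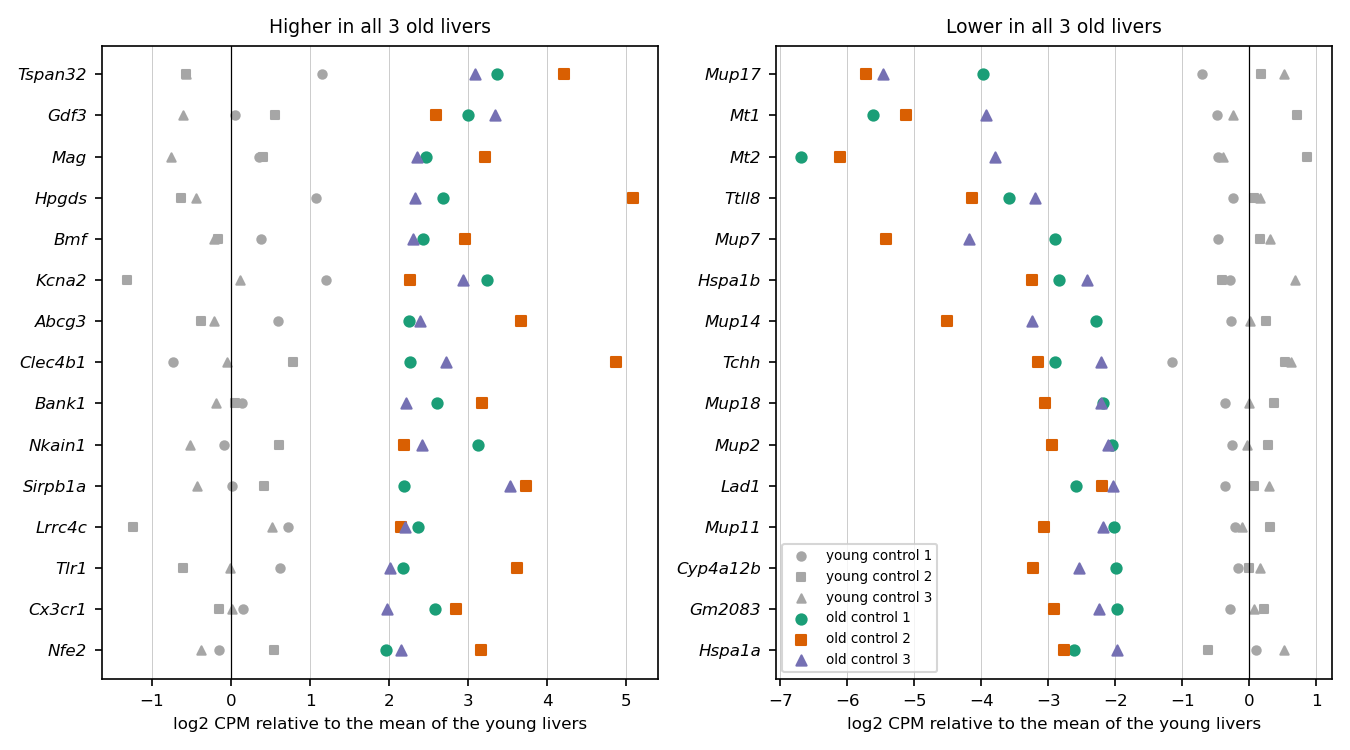
Log2 CPM of each liver relative to the mean of the young livers for the 15 higher (left) and 15 lower genes (right) that held with the largest ratio in the weakest old liver; grey points are young and coloured points old livers. That the old livers lie on 1 side of all young livers in each row follows from the rule by which the genes were chosen. Old control replicate 2 is far out for Hpgds and Clec4b1.

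The metallothioneins Mt1 and Mt2 fell strongly in every old liver. They are small cysteine-rich proteins that bind zinc and copper, and their transcription is switched on by the zinc-sensing factor Mtf1 through short metal response elements and by glucocorticoids. Mt2 (chromosome 8, 94172664 to 94173568 on GRCm38, plus strand) had 727, 1826 and 769 CPM in young livers and 9.63, 14.5 and 72.3 CPM in old livers. The lowest young liver was 10 times above the highest old one, and old control replicate 3 was the least lowered for both genes. Its log2 fold change was -5.11 ± 0.88 (SE, adjusted p = 0.00815, edgeR). Mt1, its neighbour (94179082 to 94180327, plus strand), had 658, 1513 and 777 CPM in young and 18.6, 26.3 and 60.3 CPM in old livers and a log2 fold change of -4.81 ± 0.71 (SE, adjusted p = 0.00695, edgeR). Both passed without young control replicate 2. Of 10 tested genes of metallothioneins and zinc handling, 6 fell, 0 rose and 3 held. Over all genes 8.66% were lower and 7.12% held. The median log2 fold change of the list was -0.87, against 0.04 over all genes. Slc30a10, a manganese exporter, held at -0.94 ± 0.19 (SE, adjusted p = 0.0108, edgeR). The importers Slc39a14 and Slc39a10 fell by 1.01 and 1.04 and the regulator Mtf1 itself by 0.45 on the log2 scale. Without young control replicate 2, 2 of the 10 passed.

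The 250 bases before the RefSeq start of both metallothionein genes are shown because the fall was shared by these neighbours, with matches to the metal response element core in capitals (TGCACNC or TGCGCNC, forms that differ at 1 base, on either strand).
Mt1, GRCm38.p6 chr8:94178839-94179088, plus strand: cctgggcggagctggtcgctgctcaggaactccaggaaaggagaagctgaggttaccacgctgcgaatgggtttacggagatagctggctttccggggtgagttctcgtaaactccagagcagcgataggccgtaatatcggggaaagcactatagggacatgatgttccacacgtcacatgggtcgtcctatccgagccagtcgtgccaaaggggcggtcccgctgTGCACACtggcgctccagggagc
Mt2, GRCm38.p6 chr8:94172368-94172617, plus strand: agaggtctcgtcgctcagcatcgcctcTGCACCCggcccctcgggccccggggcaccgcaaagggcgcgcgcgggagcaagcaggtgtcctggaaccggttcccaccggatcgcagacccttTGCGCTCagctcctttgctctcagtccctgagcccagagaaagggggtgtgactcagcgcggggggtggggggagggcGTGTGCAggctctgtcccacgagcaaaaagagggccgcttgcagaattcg
The window of Mt1 holds 1 match, 23 bases before the start, and that of Mt2 holds 3, at 223, 128 and 50 bases before it. The core is short: 6420 of 27025 RefSeq promoter windows of that length (23.8%) hold at least 1 match, as do 33.1% of the 10682 tested genes with a window, and 6 of 8 tested genes of the metallothionein and zinc list. A match describes the letters only. For Mt1 and Mt2 only the 250 bases before a single RefSeq start were read, so elements elsewhere, also past that start, were not counted.

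Heat shock genes fell together. They encode chaperones that fold new and damaged proteins, and many are induced by the factor Hsf1, which binds heat shock elements in their promoters. Of 28 heat shock and chaperone genes, 24 fell (85.7% called, against a background of 8.66% lower), 0 rose and 11 held. Over all genes 7.12% held. The median log2 fold change of the list was -1.07. The median log2 ratio to the young mean was -1.50, -1.12 and -0.72 in old control replicates 1, 2 and 3, so each old liver showed it and replicate 3 least. Hspa1b (chromosome 17, 34956436 to 34959238 on GRCm38, minus strand), the inducible Hsp70, had 54.1, 50.1 and 107 CPM in young and 9.14, 6.88 and 12.3 CPM in old livers. It held at a log2 fold change of -2.896 ± 0.32 (SE, adjusted p = 0.00648, edgeR). Its near-identical copy Hspa1a (34969190 to 34972156, minus strand) had 8.996, 5.41 and 11.97 CPM and 1.28, 1.14 and 2.05 CPM, at -2.56 ± 0.35 (SE, adjusted p = 0.00667, edgeR); the division of reads between the copies is uncertain. The abundant chaperones moved less. Hsp90aa1 fell from 318, 465 and 503 CPM to 98.1, 114 and 178 CPM, which gave a log2 ratio of -1.72 ± 0.41 (SE, adjusted p = 0.0168, edgeR). Hsph1 and the small heat shock gene Hspb1 dropped by 2.00 and 2.05 log2 units but did not pass without at least 1 of the old livers. Chosen after its values were seen, the constitutive Hspa8 had 2191, 2242 and 2418 CPM in young and 767, 885 and 1254 CPM in old livers and held at -1.24 ± 0.18 (SE, adjusted p = 0.00717, edgeR). The same count was 19 with only the 6 Rosa26 livers, 11 without old control replicate 2 and 8 without young control replicate 2, with no gene higher in any of these fits.

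The promoter of Hspa1b is shown with its match to a paired heat shock unit (GAANNTTC, which reads the same on both strands) in capitals.
Hspa1b, GRCm38.p6 chr17:34959239-34959488, minus strand: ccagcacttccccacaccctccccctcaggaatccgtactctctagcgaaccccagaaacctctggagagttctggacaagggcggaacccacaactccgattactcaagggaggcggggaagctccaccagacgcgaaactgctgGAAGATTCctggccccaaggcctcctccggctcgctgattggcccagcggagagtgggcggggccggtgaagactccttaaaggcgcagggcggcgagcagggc
The match lies 104 bases before the RefSeq start. The window of Hspa1a differs from it at 3 of 250 bases and holds the same match at the same place. Such a match is present in 7.73% of all 27025 windows, in 6.21% of the windows of tested genes and in 9 of 23 heat shock genes with a window (39.1%).

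The unfolded protein response, which expands the folding capacity of the endoplasmic reticulum, showed a smaller count. Of 35 genes 7 fell, 0 rose and 1 held (20% called, against 22.8% over all genes in either direction and 8.66% lower), with a median log2 fold change of -0.74. Herpud1, a part of the degradation complex of the endoplasmic reticulum, had 896, 747 and 729 CPM in young and 279.9, 308 and 254 CPM in old livers. That was the 1 that held, at -1.49 ± 0.20 (SE, adjusted p = 0.00667, edgeR), and its old livers were close to each other. Syvn1, the ubiquitin ligase of the same complex, fell by 2.22, the chaperone partners Dnajb11 and Dnajb9 by 1.23 and 1.54, and the transcription factor Xbp1 by 1.18. Without old control replicate 3 the count was 24, and it was 1 without old control replicate 2 and 1 without young control replicate 2.

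Genes that build ribosomes fell while ribosomal proteins did not pass. Of 37 ribosome biogenesis genes, which process ribosomal RNA in the nucleolus, 24 fell (64.9% called), 0 rose and 13 held. Over all genes 8.66% were lower and 7.12% held. The median log2 fold change of the list was -0.64, with medians of -0.70, -0.70 and -0.47 in old control replicates 1, 2 and 3. Nop58, a core protein of box C/D small nucleolar particles, had 38.2, 62.4 and 46.6 CPM in young and 11.8, 15.9 and 24.7 CPM in old livers, which gave a log2 ratio of -1.49 ± 0.27 (SE, adjusted p = 0.00908, edgeR). Old and young livers did not overlap. Nolc1, a chaperone of nucleolar particles, fell from 46.3, 62.1 and 55.8 CPM to 17.9, 20.97 and 26.9 CPM, with -1.32 ± 0.17 (SE, adjusted p = 0.00667, edgeR). Nop2 fell by 1.21, the nucleolar GTPase Gnl3 by 1.19 and Nop16 by 0.85 on the log2 scale, all 3 of them in every old liver. The count was 14 with only the 6 Rosa26 livers, 13 without old control replicate 2 and 7 without young control replicate 2. The E-box CACGTG, which reads the same on both strands, was found in 2 of 33 of their RefSeq promoter windows of 250 bases (6.06%), against 9.72% of the windows of tested genes. Of 81 ribosomal protein genes, 0 passed in either direction with edgeR, DESeq2 or limma voom, and 0 had an unadjusted p under 0.05 in edgeR. Their median differed in sign between old livers, at 0.41, 0.08 and -0.40 in replicates 1, 2 and 3, so the old livers had no shared direction.

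Proteasome genes fell in smaller steps. Of 31 subunit genes 11 passed, all lower (35.5% called, against 8.66% lower over all genes). Of the 31, 0 held, against 7.12% over all genes. The median log2 fold change was -0.40, and all 31 had a value below 0. Psmd6, Psmd14, Psmc2, Psmc4 and Psma3, lid, ATPase and core subunits, showed the largest ratios in their weakest old liver, and 81.1, 90.5 and 76.8 CPM of Psmd14 in young livers compared with 41.3, 47.8 and 60.9 CPM in old livers. Without old control replicate 2, and also without young control replicate 2, edgeR called 0 of the 31, with 12 at an unadjusted p under 0.05 in each of these fits, and 19 passed without old control replicate 3. This count also depended on the scaling: with library totals in place of TMM factors, 1 gene passed and the median was -0.09. The same change of scaling left 18 heat shock genes lower (median -0.79) and 13 ribosome biogenesis genes lower (median -0.35), with 0 higher in either list, while it moved the median of all genes by 0.31 on the log2 scale.

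**Figure D3:**
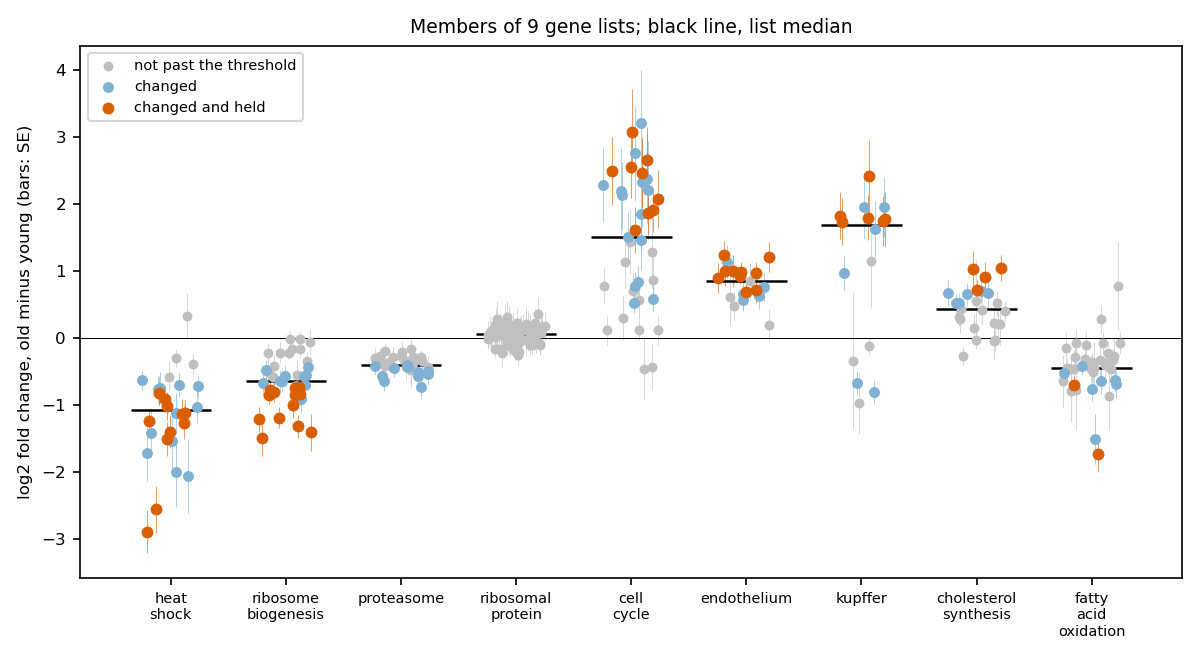
Log2 fold change (old over young livers, bars are the SE) of each tested member of 9 gene lists; orange points held in all 3 old livers, blue points passed without holding, grey points did not pass, and the black line is the list median. Most heat shock and ribosome biogenesis genes lie below 0, ribosomal proteins around 0, and most cell cycle, endothelium and Kupffer cell genes above 0.

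Most major urinary protein (Mup) genes were lower in old livers. Male mice make these pheromone carriers in the liver and excrete them in urine, under pulses of growth hormone and testosterone. Of 19 tested Mup genes 16 fell (84.2% called), 0 rose and 8 held. Over all genes 8.66% were lower and 7.12% held. The Mup genes had a median log2 fold change of -2.37. Their summed level by library totals was 33980 to 48050 CPM in young and 11300 to 26480 CPM in old livers. Here old control replicate 1 was the least lowered, with a median log2 ratio of -1.60 against -3.06 and -2.86. Mup17 had 277, 510 and 641 CPM in young and 28.6, 8.39 and 10.1 CPM in old livers, and Mup7 had 2859, 4373 and 4848 CPM and 525, 91.7 and 216 CPM. Both genes held, which requires that old and young livers do not overlap. The log2 fold changes were -4.93 ± 0.82 (SE, adjusted p = 0.00783, edgeR) for Mup17 and -3.86 ± 0.85 (SE, adjusted p = 0.0132, edgeR) for Mup7. Mup genes are near-identical copies, so how their reads were shared out is uncertain and the count is not one of independent genes. Without young control replicate 2, 3 of the 19 passed.

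In the list of growth hormone and insulin-like growth factor genes, 5 of 20 fell, 0 rose and 3 held (25% called, near the 22.8% over all genes, where 8.66% of all were lower). The 3 were the male-biased fatty acid hydroxylases Cyp4a12b and Cyp4a12a, which are close paralogs, and the elongase Elovl3. Cyp4a12b had 254, 284 and 320 CPM in young and 71.7, 30.3 and 48.6 CPM in old livers, which gave a log2 ratio of -2.51 ± 0.36 (SE, adjusted p = 0.00667, edgeR). No old liver came near a young one. Elovl3 had 261, 414 and 335 CPM and 156, 79.3 and 159.9 CPM, at -1.35 ± 0.25 (SE, adjusted p = 0.00926, edgeR). Cyp7b1, an oxysterol hydroxylase, and Cyp2d9, a steroid hydroxylase of the male liver, fell by 1.34 and 0.95 without holding. In the opposite direction, Cyp2b9, a cytochrome known as female-biased, had 0.306, 0 and 0.127 CPM in young livers and 0.688, 11.4 and 23.8 CPM in old livers. It held at 6.28 ± 1.49 (SE, adjusted p = 0.0164, edgeR), but its old livers ranged over more than 10-fold. Leaving out old control replicate 2 or young control replicate 2 left 3 lower genes in the list. With library totals 5 fell and 4 rose, and the median turned from -0.16 to 0.12.

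Lipid genes split by process. Cholesterol synthesis was higher: of 25 genes 10 rose, 0 fell and 4 held (40% called, background 14.1% higher), with medians of 0.30, 0.43 and 0.67 in old control replicates 1, 2 and 3. Hmgcs1, the cytosolic synthase that begins the mevalonate pathway, had 368, 482 and 274 CPM in young and 594, 641 and 888 CPM in old livers, which gave a log2 ratio of 0.92 ± 0.22 (SE, adjusted p = 0.0167, edgeR). Fdft1, squalene synthase, rose from 168, 182 and 129 CPM to 235, 271 and 279.9 CPM. Old control replicate 3 was the highest liver for both. Pmvk, Mvd and Lss rose by 0.70, 0.68 and 0.65 on the log2 scale. Srebf1, the sterol and insulin responsive transcription factor of lipid synthesis, had 121, 82.7 and 96.4 CPM and 248, 275 and 209.7 CPM, with no overlap and 1.29 ± 0.20 (SE, adjusted p = 0.00762, edgeR). Among 21 fatty acid synthesis genes, 3 rose and 2 fell (23.8% called, near the 22.8% over all genes). Malic enzyme Me1 and the phosphatidate phosphatase Lpin1 held lower, at -1.09 and -0.99. Pnpla3, a lipase gene that follows feeding, had 5.45, 1.45 and 3.99 CPM in young and 57.2, 38.1 and 3.82 CPM in old livers, so replicate 3 lay among the young. The count of higher cholesterol genes was 4 without old control replicate 2, 4 with only the 6 Rosa26 livers and 3 without young control replicate 2.

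Fatty acid oxidation genes were lower where they passed. Of 36 oxidation genes, many of them targets of the fatty acid sensor Ppara, 9 fell, 0 rose and 2 held (25% called, near the 22.8% over all genes, where 8.66% of all were lower). Angptl4, a secreted inhibitor of lipoprotein lipase that fasting induces, had 164, 227 and 152 CPM in young and 59.2, 47.3 and 57.8 CPM in old livers, which gave a log2 ratio of -1.73 ± 0.28 (SE, adjusted p = 0.00772, edgeR). The old livers were alike. The carnitine carrier Slc25a20 fell from 135, 138 and 137 CPM to 80.3, 76.7 and 94.1 CPM, and it held at -0.71 ± 0.14 (SE, adjusted p = 0.00981, edgeR). Acot1 and Cpt2 fell by 1.51 and 0.77 without holding. Of 25 lipid droplet genes 5 fell, 2 rose and 2 held (28% called, against 22.8% over all genes). Those that held were the droplet coat protein Plin5 at -0.95 and the lipase activator Abhd5 at -1.09. G0s2, an inhibitor of the main triglyceride lipase, had 105, 226 and 204 CPM in young and 67.7, 42.6 and 16.8 CPM in old livers, lowest in replicate 3. The median of the droplet list was -0.25 and turned to 0.06 with library totals, where 4 fell and 3 rose. The oxidation list had 2 lower genes without old control replicate 2, 2 without young control replicate 2 and 18 without old control replicate 3. Scaling by library totals left 4 oxidation genes lower and 0 higher, with a median of -0.13 in place of -0.44.

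A few clock genes differed between the age groups, in a share near that of all genes. Per3, a repressor of the clock, had 4.896, 1.39 and 6.84 CPM in young livers and 25.2, 21.2 and 9.83 CPM in old livers and held at 2.09 ± 0.46 (SE, adjusted p = 0.0133, edgeR). The clock output factor Dbp had 13.4, 2.64 and 24.7 CPM and 86.4, 71.6 and 26.7 CPM, and rose by 2.18 on the log2 scale without holding. For both genes young control replicate 2 was the lowest and old control replicate 3 the nearest to the young. In the other direction Cry1 and Nfil3, a repressor of Dbp targets, held at -0.89 and -1.25, and Arntl and Clock fell by 0.95 and 0.48. In all, 4 of 15 core clock genes (26.7%) and 3 of 11 clock output genes (27.3%) passed, against 22.8% over all genes. Without young control replicate 2, 1 of the 15 passed. With library totals 4 core genes were higher and 0 lower at an adjusted p under 0.05 in edgeR, the list median turned from -0.18 to 0.15 and Cry1, Arntl and Clock no longer passed. The part of collection time in the other results was not tested.

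The promoter of Per3 is shown with its D-box elements, the site of Dbp and Nfil3, in capitals (TTATGTAA or TTATGCAA, which differ at 1 base, on either strand).
Per3, GRCm38.p6 chr4:151044666-151044915, minus strand: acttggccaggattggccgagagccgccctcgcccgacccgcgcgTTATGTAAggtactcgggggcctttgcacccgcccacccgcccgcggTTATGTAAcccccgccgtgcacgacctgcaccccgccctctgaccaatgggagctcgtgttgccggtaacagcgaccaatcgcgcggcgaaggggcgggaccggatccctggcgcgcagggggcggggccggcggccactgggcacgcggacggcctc
The matches lie 205 and 158 bases before the RefSeq start. At least 1 match is present in 484 of 27025 windows (1.79%), in 1.41% of the windows of tested genes in 2 of 12 core clock genes and in 0 of 10 clock output genes, Dbp among them.

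Genes of cell cycle arrest and cell death did not move in 1 direction. Of 27 p53 and senescence genes, 6 rose and 4 fell (37% called). Over all genes 22.8% were called, 14.1% higher and 8.66% lower. Cdkn1a, an inhibitor of cyclin-dependent kinases, had 85.3, 157 and 77.4 CPM in young and 27.5, 34.05 and 20.1 CPM in old livers and held at -1.97 ± 0.28 (SE, adjusted p = 0.00667, edgeR), a fall in every old liver. Cdkn2a, another such inhibitor and a marker of senescent cells, had 1 count in each young liver and 12, 6 and 12 counts in the old livers. It held and was at least 2.42-fold higher, at a depth where single counts matter. Among 19 Bcl2 family genes 6 rose and 1 fell (36.8% called, against 22.8% over all genes). Besides Bmf, the pro-apoptotic Bcl2l11 and Pmaip1 rose by 0.92 and 1.47 on the log2 scale, while Bcl2l1, which encodes the protective Bcl-xL, had 74.4, 73.3 and 63.7 CPM in young and 34.8, 45.8 and 36.4 CPM in old livers and held at -0.85 ± 0.13 (SE, adjusted p = 0.00741, edgeR). Without young control replicate 2, 1 gene rose and 2 fell in the first list and 1 rose and 1 fell in the second.

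Markers of several cell types other than hepatocytes were higher in old livers, most evenly those of the endothelium. In bulk tissue, more cells of a type and more RNA per cell cannot be told apart, and neither can fewer cells and less RNA per cell. Of 19 sinusoidal and vascular endothelium genes 15 rose (78.9% called, background 14.1% higher), 0 fell and 10 held (background 7.12% held). The median log2 ratio was 0.90, 0.85 and 0.79 in old control replicates 1, 2 and 3. By library totals the genes summed to 318 to 476 CPM in young and 719.6 to 971 CPM in old livers. Stab2, a scavenger receptor of the sinusoid, had 27.6, 15.96 and 29.8 CPM in young and 55.5, 44.6 and 47.2 CPM in old livers, which gave a log2 ratio of 1.005 ± 0.22 (SE, adjusted p = 0.0131, edgeR). Plvap, which forms the diaphragms of fenestrae, had 29.5, 28.3 and 33.2 CPM and 56.4, 99.5 and 59.7 CPM, at 1.25 ± 0.20 (SE, adjusted p = 0.00772, edgeR). The mannose receptor Mrc1 and the Fc receptor Fcgr2b held at 1.21 and 0.99. Without young control replicate 2 the count was 4, and with only the 6 Rosa26 livers it was 8.

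Stellate cell and fibroblast genes rose with less weight in replicate 3. Of 20 genes 11 rose, 0 fell and 4 held (55% called). Over all genes 22.8% were called, 14.1% higher, and 7.12% held. The stellate cell and fibroblast genes had medians of 1.05, 1.27 and 0.41. Their summed level by library totals was 244 to 444 CPM in young and 498 to 936 CPM in old livers. Reln, a secreted protein of stellate cells, had 16.2, 14.5 and 22.4 CPM in young and 39.3, 43.7 and 33.4 CPM in old livers and held at 1.13 ± 0.18 (SE, adjusted p = 0.00762, edgeR); the proteoglycan Dcn had 91.2, 99.9 and 132 CPM and 195, 259.9 and 189 CPM and held at 0.99. Lrat, which stores vitamin A as ester, rose by 1.19 and the collagen Col3a1 by 1.04 without holding. Of 37 collagen and matrix genes 14 rose, 0 fell and 3 held (37.8% called), and edgeR called 0 in a fit without young control replicate 2, where 15 had an unadjusted p under 0.05. Without that liver 1 stellate cell gene passed, and with only the 6 Rosa26 livers 3 did.

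Most Kupffer cell genes rose, by unequal amounts among the old livers. Of 16 genes 10 rose, 2 fell and 6 held (75% called). Over all genes 22.8% were called, 14.1% higher and 8.66% lower, and 7.12% held. The Kupffer cell genes had medians of 0.64, 2.27 and 1.44 in old control replicates 1, 2 and 3. Their summed level by library totals was 735 to 820.5 CPM in young and 1060 to 2383 CPM in old livers. Clec4f, a lectin of Kupffer cells, had 75.2, 70.2 and 64.7 CPM in young and 127, 432 and 159.8 CPM in old livers, which gave a log2 ratio of 1.77 ± 0.41 (SE, adjusted p = 0.0149, edgeR). The complement genes C1qa, C1qb and C1qc held at 1.74, 1.799 and 1.75, each highest in replicate 2. The 2 lower genes, the complement factor C6 and the regulator Id3, fell by 0.80 and 0.67. Which cells the transcripts of this list came from, higher or lower, was not tested. No gene of the list passed without young control replicate 2 (edgeR, 0 of 16, with 12 at an unadjusted p under 0.05), and 10 rose with only the 6 Rosa26 livers.

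Other leukocyte lists had higher medians and few genes that held. Over all genes 22.8% were called, 14.1% higher, and 7.12% held. Of 18 genes of monocyte-derived macrophages 10 rose, 0 fell and 3 held (55.6% called); 8 of the 10 were led by old control replicate 2, which means that its log2 ratio exceeded that of both other old livers by at least 1. B cell genes rose in 9 of 14 and held in 4 (64.3% called), and there replicate 1 had the highest median, 2.01, against 1.52 and 0.66. Cd79b, a part of the B cell receptor, had 0.734, 0.264 and 0.127 CPM in young and 4.08, 4.19 and 1.15 CPM in old livers and held at 3.03 ± 0.65 (SE, adjusted p = 0.0123, edgeR). T cell genes rose in 7 of 19 and held in 0 (36.8% called). Cd3e, the invariant chain of the T cell receptor complex, had 0.245, 0.396 and 0.3801 CPM and 1.67, 2.96 and 0.525 CPM, so that replicate 3 lay close to the young livers. Of 13 genes of antigen presentation on class II molecules 10 rose and 2 held (76.9% called), and 7 were led by replicate 2. H2-DMb1, a peptide editor of that pathway, had 3.24, 2.18 and 2.91 CPM and 9.19, 29.4 and 5.82 CPM and held at 2.41 ± 0.56 (SE, adjusted p = 0.0151, edgeR); Cd74, the invariant chain, had 82.8, 52.2 and 65.7 CPM and 196, 656 and 94.6 CPM. Without old control replicate 2, 3 macrophage, 4 B cell, 0 T cell and 2 class II genes passed in edgeR, where 5 T cell genes had an unadjusted p under 0.05. The counts were 1, 1, 0 and 0 without young control replicate 2, where 10 T cell and 11 class II genes had such a p.

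Scaled by library totals without TMM factors, summed marker levels did not overlap between the age groups for 11 of 16 cell type lists. All of these were higher in old livers. TMM factors were 0.858, 0.823 and 0.897 in young and 1.109, 1.116 and 0.966 in old livers. Dividing by them would raise the young sums relative to the old ones. The cholangiocyte and dendritic cell ranges would then overlap, and Kupffer cells would keep no clear gap. Plasma cell sums would be lower in old livers without overlap. With library totals the sums for monocyte-derived macrophages were 165 to 285 CPM in young and 372 to 1063 CPM in old livers. For B cells they were 4.996 to 7.398 CPM in young and 12.8 to 38.8 CPM in old livers. For T cells they were 12.1 to 14.03 CPM in young and 18.6 to 89.4 CPM in old livers and for natural killer cells 3.47 to 5.09 CPM in young and 7.92 to 35.2 CPM in old livers. Megakaryocyte and platelet markers came to 13.4 to 20.3 CPM in young and 38.1 to 156 CPM in old livers, and mature neutrophil markers to 10.2 to 18.3 CPM in young and 33.2 to 204 CPM in old livers. With library totals, overlap was seen for hepatocytes and for mesothelium, at 272 to 536 CPM in young and 228 to 308 CPM in old livers. Plasma cell sums overlapped at this scaling only, at 628 to 866 CPM in young and 397 to 657 CPM in old livers. They were mostly Xbp1, which hepatocytes also express. Erythroid sums overlapped at 974 to 1128 CPM in young and 863 to 2075 CPM in old livers. Those of granulocyte precursors did so at 67.3 to 131 CPM in young and 35.01 to 278 CPM in old livers. Klra4, Klra8 and Tnfrsf17 had at most 3 counts in all 6 livers. The part of these marker levels in the falls of hepatocyte genes was not tested.

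Genes of cell division rose from a low level. Of 37 genes 24 rose (64.9% called), 0 fell and 9 held. Over all genes 14.1% were higher and 7.12% held. The cell division genes had medians of 0.54, 2.06 and 1.44 in old control replicates 1, 2 and 3. Mki67, a marker of dividing cells, had 1.28, 1.12 and 0.9503 CPM in young and 2.900, 20.5 and 5.199 CPM in old livers, which gave a log2 ratio of 3.08 ± 0.64 (SE, adjusted p = 0.011, edgeR). Mki67 held, and replicate 2 was far above the other old livers. Foxm1, a transcription factor of mitotic genes, had 0.734, 0.264 and 0.317 CPM and 1.57, 4.56 and 2.38 CPM, at 2.67 ± 0.48 (SE, adjusted p = 0.00877, edgeR). Cdt1, which licenses replication origins, Bub1b of the spindle checkpoint and Top2a held at 1.87, 2.55 and 2.495. Which cells these transcripts came from was not tested. The count of higher genes was 10 with only the 6 Rosa26 livers, 9 without old control replicate 2, where 1 fell, and 4 without young control replicate 2.

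Hepatocyte genes outside these groups changed in part. Of 18 hepatocyte markers 4 fell and 0 held (22.2% called, against 22.8% over all genes). Among 24 hepatocyte transcription factors 5 fell, 0 rose and 2 held (20.8% called), among them Foxa3 at -1.105. Hnf4a, a master regulator of the hepatocyte, had 1167, 1188 and 1069 CPM in young and 437, 475 and 842 CPM in old livers. It fell by 0.96 without holding. In the urea cycle and amino acid list 9 of 40 fell and 1 rose (25% called), with Nags, Otc and Cth held at -0.65, -0.68 and -0.75. Of 44 phase II detoxification genes 9 fell, 0 rose and 2 held (20.5% called). These 2 were the glucuronosyltransferases Ugt2b1 and Ugt2b5 at -1.17 and -0.94, whose paralogs may share reads. The called shares of the transcription factor, urea and phase II lists lay near the 22.8% over all genes, where 8.66% of all were lower. Their held shares were 8.33%, 7.5% and 4.55%, against 7.12% over all genes. Among secreted hepatokines Angptl4 and Tsku held lower, Tsku at -1.66, and Enho, which encodes adropin, held higher, with 6.06, 5.61 and 2.03 CPM in young and 17.1, 15.1 and 19.1 CPM in old livers and 1.904 ± 0.40 (SE, adjusted p = 0.0116, edgeR). Without old control replicate 3, 10 hepatocyte markers, 9 transcription factors, 17 urea and amino acid genes and 21 phase II genes fell. The counts were 0, 2, 1 and 1 in a fit without young control replicate 2, where 5 hepatocyte markers had an unadjusted p under 0.05. With library totals 2 urea and amino acid genes fell and 3 rose (median 0.03 in place of -0.27), 4 phase II genes fell and 4 rose, and Cth no longer passed.

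The acute phase, the plasma protein response to interleukin 6, had a low median in 2 old livers and one nearer to the young in the other. Of 33 genes 7 fell, 0 rose and 1 held (21.2% called, near the 22.8% over all genes, where 8.66% of all were lower), with medians of -1.15, -0.89 and -0.22 in old control replicates 1, 2 and 3. Saa2, serum amyloid A, had 691, 1042 and 768 CPM in young and 34.6, 91.4 and 228 CPM in old livers. It fell by 2.82 on the log2 scale, but the adjusted p was 0.0701 without replicate 1 and 0.113 without replicate 2; Saa1 and Saa2 are close copies. Serpina3k, an abundant serine protease inhibitor, had 11270, 15980 and 13180 CPM and 3917, 4791 and 7479 CPM and was the 1 that held, at -1.32 ± 0.26 (SE, adjusted p = 0.0101, edgeR). Without old control replicate 3, 20 genes of the list fell, against 1 without old control replicate 2 and, in edgeR, 0 without young control replicate 2, where 12 had an unadjusted p under 0.05. Of 17 receptors and signalling genes of the interleukin 6 family, 1 rose (5.88%, against 14.1% higher over all genes) and 0 held. The 1 that rose was Tyk2, by 0.33 on the log2 scale. Stat3 had 271, 257 and 237 CPM in young and 104, 122 and 272 CPM in old livers, with replicate 3 above all the young and the other old livers below them.

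Several pathways had a smaller share of called genes than all genes together. Of 74 nuclear genes of the respiratory chain 5 fell and 0 held (6.76% called), with medians of 0.16, -0.32 and -0.56 in the 3 old livers. Only 4 of the 74 had a log2 fold change above 0. In edgeR 16 lower and 0 higher genes had an unadjusted p under 0.05, and 0 genes had such a p with library totals. Coagulation had 1 of 25 genes higher (4%), and that was F8, which liver endothelium makes. Interferon stimulated genes fell in 3 of 27 (11.1%), and genes of class I antigen presentation rose in 2 of 15 (13.3%). Neither list had a gene that held. Of 49 cytochromes of foreign compound metabolism 2 rose and 4 fell (12.2% called). Over all genes 22.8% were called, 14.1% higher and 8.66% lower. The medians of the respiratory chain, coagulation, interferon and cytochrome lists were below 0 with TMM factors, at -0.22, -0.08, -0.16 and -0.17, and above 0 with library totals, at 0.11, 0.22, 0.14 and 0.12.

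**Figure D4:**
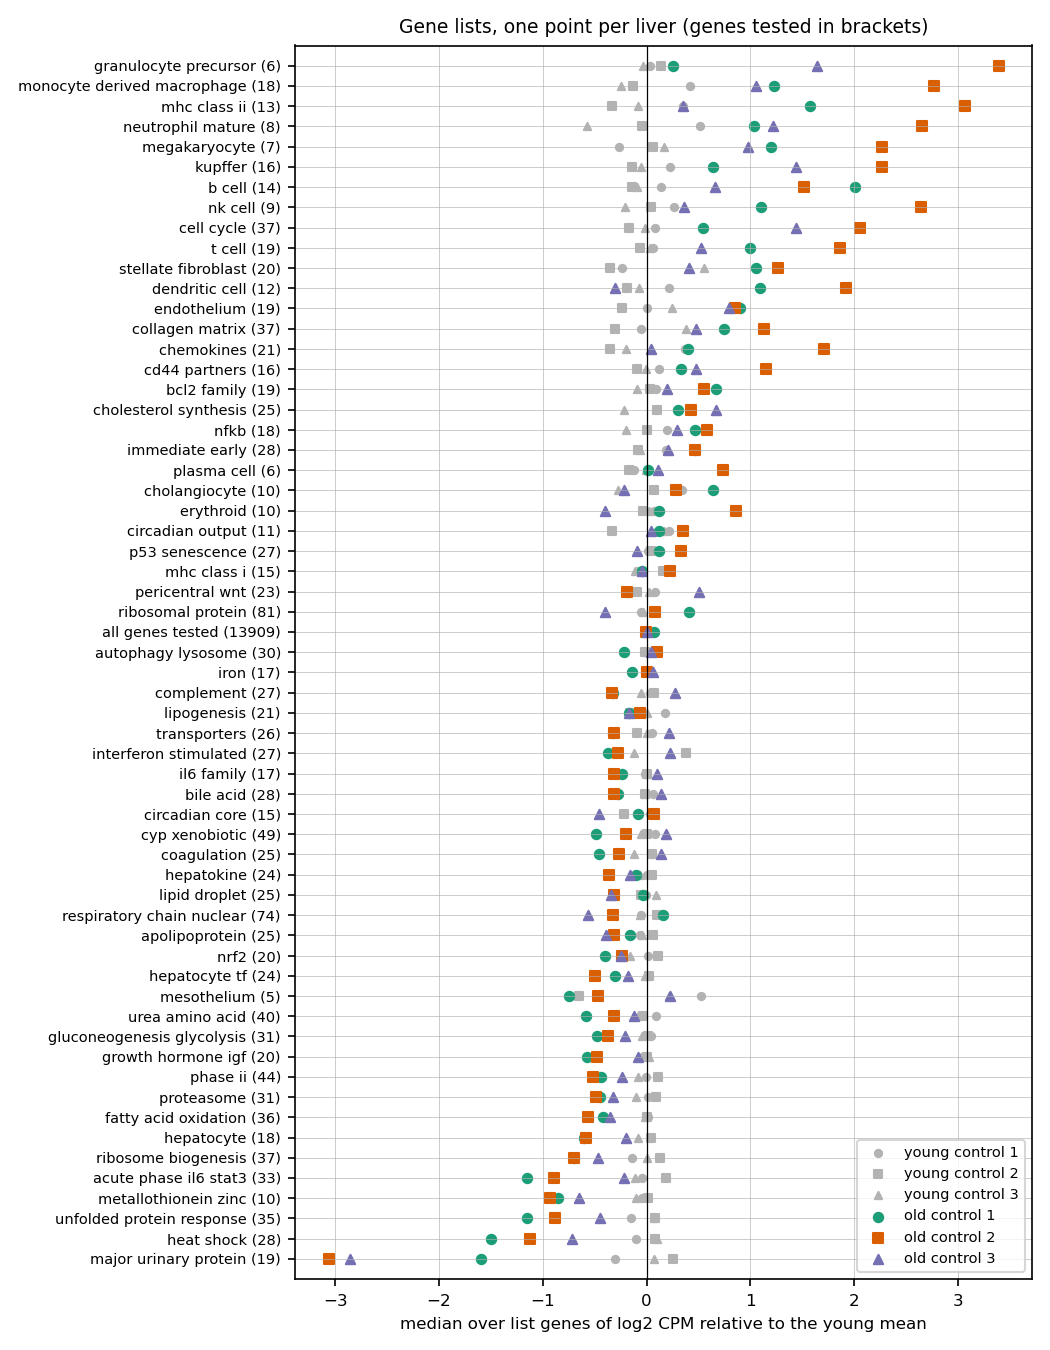
Median log2 CPM relative to the young mean over the tested genes of each list, 1 point per liver; grey points are young and coloured points old livers, and the number of genes tested stands in brackets. The 3 old livers lie close together for the endothelium (0.79 to 0.90) and apart for class II antigen presentation (0.35 to 3.07) and ribosomal proteins (-0.40 to 0.41).

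Changes led by a single old liver came almost wholly from old control replicate 2. In 364 of the 3172 changed genes 1 old liver exceeded the next by at least 1 log2 unit, 338 of them in replicate 2, 19 in replicate 1 and 7 in replicate 3. Of the 338, 333 were higher, and 112 still passed without replicate 2. Genes of granulocyte precursors (Ngp, Mpo), platelets (Pf4, Ppbp) and a macrophage receptor (Trem2) headed them. Ppbp, a platelet chemokine, had 0.673, 0.989 and 1.204 CPM in young and 2.11, 27.5 and 2.15 CPM in old livers. Without replicate 2 the edgeR adjusted p was 0.178 for Ngp, 0.116 for Mpo, 0.211 for Pf4, 0.0786 for Ppbp and 0.0558 for Trem2. These 5 genes were chosen for the largest lead of replicate 2. That they did not pass without it follows largely from this choice. Replicate 3 led for Slc22a26, an organic anion carrier, with 1.77, 4.42 and 20.4 CPM in the old livers, and for the calcium sensor Ncald, with 8.85, 11.4 and 32.00 CPM.

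**Figure D5:**
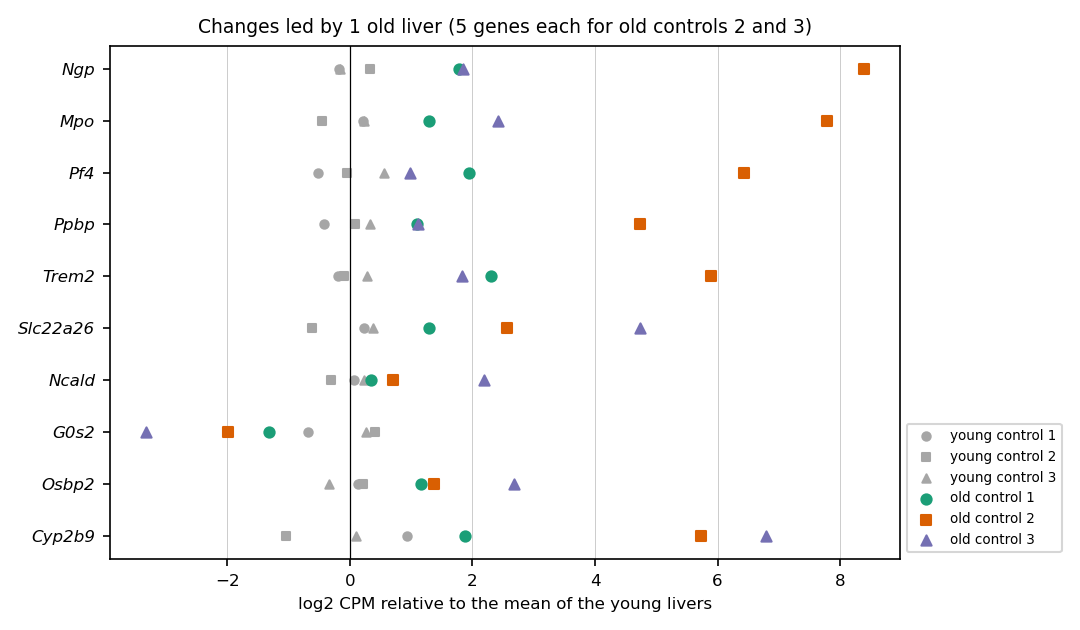
Log2 CPM of each liver relative to the young mean for the 5 genes most strongly led by old control replicate 2 (upper rows) and 3 (lower rows); grey points are young livers. Ngp, Mpo and Pf4 are more than 4 log2 units further out in replicate 2 than in any other old liver.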

How the data were processed

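Libraries of polyadenylated RNA (Watchmaker mRNA kit, 250 ng of total RNA) were sequenced on an Element AVITI instrument, per the labels' protocols. The authors deposited raw counts: whole numbers, not normalized, in a table of 24537 gene symbols by 10 livers. Of these symbols 5807 had no counts. Per the submitters' processing notes, FastQC 0.11.8, Trim Galore 0.4.4, STAR 2.5.3a and HOMER were used with mm10. Their order, gene models and strand setting are not given in the sources used here, so overlapping, antisense and near-identical genes are uncertain.

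Groups came from the labels, and replicate numbers only name livers. The members and gene lists were chosen with earlier results of these data known. The 60 lists hold 1498 entries, 34 without a symbol in the table. Counts were tested with edgeR 4.0.16 in R 4.3.3 (quasi-likelihood test, 1 coefficient per group over all 10 libraries, TMM factors, filterByExpr with a minimum count of 10 and total of 15), which left 13909 genes with Benjamini-Hochberg adjustment at 0.05. The biological coefficient of variation was 21.8%. Log2 ratios of single livers used a prior count of 2, and summed levels of gene lists used library totals without TMM factors. A floor of 3 counts, 0.137 to 0.198 CPM in the 6 Rosa26 livers, bounds folds against undetected genes and covers counting error only. Named genes were Cd44 as a label check, the 15 genes that held in each direction and the 5 led by each old liver with the largest ratio or lead and a group mean of at least 1 CPM, and up to 5 changed members per list, of which a selection is printed; some of them are not reported here. Symbols gave positions from GENCODE M21 (GRCm38) for 97.1% of genes, and promoter windows came from RefSeq on GRCm38.p6, matched for 10682 tested genes. The steps were tested on simulated counts. Alternatives were other fits, factors, filters, tools (DESeq2 1.42.0, limma 3.58.1 with voom), a correction for GC content and length (mgcv 1.9.3) and leaving out each library; library totals without TMM factors were added after seeing the data.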

Additional observations from a re-analysis of the deposited data

How the results depend on the processing

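The 3172 genes that differed between old and young livers lay in number between 2449 (limma voom) and 4226 (library totals) under the other tools, factors, filters and guide coefficients; it was 1192 with only the 6 Rosa26 livers and 1540 with an added 2-fold minimum. Leaving out 1 library at a time gave 396 (without young control replicate 2) to 5327 (without old control replicate 3). The number that held, 991, lay between 745 and 964 with separate guide coefficients, no filter or RLE factors, and was 2094 with library totals, 344 with every old liver at least 2-fold out, and 0 with only the 6 Rosa26 livers, where 2505 genes had an unadjusted p under 0.05 in all 3 steps. Leaving out a young liver gave 0 to 292 genes that held; at the 0, 2363 genes had such an unadjusted p in all 3 steps. These smaller fits have fewer libraries; no other cause was tested. Of 253 named genes, none reversed where tested; 190 no longer passed without young control replicate 2, 137 without old control replicate 2, 98 of the 244 tested with only the 6 Rosa26 livers and 41 with library totals, an alternative chosen after seeing the data. Of the 30 genes that held and are named, 23 passed without young control replicate 2, and all 30 passed with library totals and after the GC and length correction. The share of higher genes was 62% of the calls, 91.6% with library totals, 41.8% after the GC and length correction and 85.8% above 2-fold. The labels give no pairing between old and young livers, so no paired analysis was run. Genes near the floor of 3 counts are limited by depth.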

Other observations

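Some other lists held a few genes that changed in every old liver. Of 28 immediate early genes, which respond quickly to stimulation, 4 rose (14.3%, near the 14.1% higher over all genes). Fos had 1.59, 1.65 and 1.46 CPM in young and 4.13, 3.92 and 2.86 CPM in old livers and held at 1.21 ± 0.27 (SE, adjusted p = 0.0138, edgeR), and Ier3 held at 1.49. In iron handling the transferrin receptor Tfrc had 32.5, 34.8 and 33.2 CPM in young and 18.6, 21.7 and 17.1 CPM in old livers and held at -0.81 ± 0.16 (SE, adjusted p = 0.00986, edgeR), while the iron exporter Slc40a1 rose by 0.98 on the log2 scale. Among transporters Slc22a27 held higher at 2.11 and Slc22a30 lower at -0.69. Nkd1, a target and inhibitor of Wnt signalling, had 2.999, 2.04 and 3.93 CPM in young and 9.39, 6.79 and 7.44 CPM in old livers. It held at 1.39 ± 0.24 (SE, adjusted p = 0.00819, edgeR). In all, 2 of 23 pericentral Wnt genes rose (8.7%, under the 14.1% higher over all genes). Abca1, the cholesterol exporter that loads apolipoprotein A-I, held lower at -0.93. Among megakaryocyte and platelet genes the lectin Clec1b had 5.32, 4.62 and 5.13 CPM in young and 13.9, 25.3 and 11.02 CPM in old livers and held at 1.73 ± 0.32 (SE, adjusted p = 0.00917, edgeR), and the integrin Itga2b held at 1.62. Batf3, a transcription factor of dendritic cells, and the myeloid receptor Sirpa held at 2.304 and 2.04. With young control replicate 2 left out, Abca1, Nkd1, Sirpa and Slc22a27 still passed; Fos, Ier3, Tfrc, Slc40a1, Slc22a30, Clec1b, Itga2b and Batf3 kept their direction with adjusted p of 0.0508 to 0.0942 (edgeR).

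Most genes that held belong to none of the gene lists: 859 of the 991, while 1300 of the 13909 tested genes are in a list.

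The 4 old livers labelled as Cd44 knockouts were not compared, and they share the young livers as a reference, so their levels are given as values without a comparison. Knockout replicates 1 to 4 had 16.4, 30.9, 8.43 and 5.78 CPM of Mt2, 9.36, 11.5, 7.16 and 7.82 CPM of Hspa1b, 6.62, 5.63, 8.34 and 6.94 CPM of Bmf and 2.21, 4.14, 4.76 and 4.32 CPM of Cx3cr1. Their level of Mki67 was 4.24, 5.71, 7.11 and 6.24 CPM and that of Cyp4a12b 51.4, 59.7, 101 and 115 CPM.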
